A study of Gossypium hirsutum with 17 samples.

Results

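MPK3 and related MAP kinase transcripts of upland cotton (Gossypium hirsutum) were followed through 5 abiotic stresses with 7 probe sets of the Affymetrix Cotton Genome Array, out of 24132 on the array. The members were taken by name and not by their values. Of these, 3 probe sets share a cluster number of the array (Ghi.6088.1.S1_s_at, Ghi.6088.2.A1_s_at and Ghi.6088.2.S1_at, here cluster A) and 3 share another (Ghi.7954.1.S1_s_at, Ghi.7954.2.S1_at and Ghi.7954.3.A1_at, here cluster B), and the platform annotation assigns all 6 to LOC107959059, which the RefSeq table lists with the synonym MPK3. The remaining probe set, Ghi.757.1.S1_x_at, is assigned to LOC107903096, which carries the synonyms MPK3 and MPK6. All 7 were among the 24029 probe sets tested, because no filter on low signal was set.

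The study asked how cotton seedlings respond to several abiotic stresses, and total RNA of seedlings 14 days after germination was hybridized to 17 arrays. Germination and the first 4 days of growth took place on half-strength MS (Murashige and Skoog) medium. The ABA group (3 arrays) then stood for 10 days on medium with 1 μM abscisic acid, the cold group (3 arrays) for 8 days at 25 °C followed by 2 days at 4 °C, the mannitol group (3 arrays) for 10 days on 200 mM mannitol, which lowers the water potential of the medium, and the NaCl group (3 arrays) for 10 days on 200 mM NaCl. The medium of these groups was at pH 5.8, whereas the pH group (2 arrays) was kept for 10 days on medium at pH 11, and the control group (3 arrays) under normal growth conditions. All groups other than cold were kept at 25 °C throughout. Replicates were labelled as biological, whereas the methods describe RNA pooled from 3 biological replicates per treatment, so the spread given here is that between arrays and may be partly technical. Whole seedlings were measured, in which more cells of a type and more RNA per cell cannot be told apart.

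MAP kinase cascades pass signals from the cell surface through a MAPKKK, which phosphorylates a MAPKK, which in turn phosphorylates a terminal MAP kinase. In Arabidopsis, MPK3 and MPK6 are closely related terminal kinases that share many upstream kinases and targets, among them ACC synthases of ethylene synthesis and the cold regulator ICE1. MPK3 is known both as an enzyme activated by phosphorylation and as a gene whose transcript accumulates under stress, and an expression array measures the transcript alone. Upland cotton is an allotetraploid, and probe sets with the endings _s_at and _x_at hold probes shared with other sequences, so near-identical copies of MPK3 cannot be told apart by them.

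Deposited signals differed in scale: the mean signal without the outer 2% at each end was 500.1 in every ABA, mannitol and pH array, but 107 to 127 under cold, 18.5 to 140 under NaCl and 118 to 120 in control. Log2 signals were therefore quantile normalized, and all values below are on this log2 scale unless another is named, where a difference of 1 is a 2-fold change. For ABA, mannitol and pH, the stress and the scale of deposit cannot be told apart in the comparison with control, cold or NaCl. Cold and NaCl share the control's kind of scale. NaCl replicate 2 resembled cold replicate 2 more than any other array (r = 0.941 over all probe sets), and NaCl replicate 1 had a median deposited signal of 5.41, against 36.0 to 37.7 in control. The log2 ratio of 3′ to 5′ actin signal, a sign of RNA integrity, was 4.46 to 5.31 under ABA, 2.69 to 7.22 under cold, 2.85 to 3.97 under mannitol, 2.70 to 4.79 under NaCl, 4.45 to 4.46 at high pH and 2.78 to 3.05 in control, and its part in the results below was not tested. No probe set with a leaf marker name (RBCS, LHC or CAB) was annotated, so the labelled tissue could not be checked by such markers.

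Transcripts of MPK3 were up-regulated under ABA, cold, mannitol and high pH, and those reported by Ghi.757.1.S1_x_at were down-regulated under ABA, mannitol and high pH. Changes were called where the limma p, adjusted over all probe sets by Benjamini and Hochberg, was 0.05 or less and the fold 2 or more. Of the 6 MPK3 probe sets, 4 rose under ABA, 4 under cold, 5 under mannitol, 0 under NaCl and 5 at high pH, and none fell. Among all probe sets, 11.8% rose and 10.3% fell under ABA, 5.66% and 5.48% under cold, 11.9% and 10.9% under mannitol, 0.466% and 0.229% under NaCl, and 11.7% and 10.4% at high pH. The median log2 change of the 6 was 1.86 under ABA, 2.26 under cold, 1.85 under mannitol, 0.73 under NaCl and 1.99 at high pH, where the median of all probe sets lay between -0.05 and 0.00. All 7 members together gave 5 calls under ABA, 4 under cold, 6 under mannitol, 0 under NaCl and 6 at high pH, where 22.1%, 11.1%, 22.8%, 0.695% and 22.1% of all probe sets were called in either direction. For NaCl, the count at 2-fold or more and an unadjusted p of at most 0.05 was 1, namely Ghi.6088.2.S1_at, and with the SAM test it was 0, where 8.43% and 0.00416% of all probe sets were called. The 4 cold calls (the 3 probe sets of cluster A and Ghi.7954.1.S1_s_at) did not pass the test without rescaling, where the changes were of like size, at 2.82, 2.59, 2.81 and 2.07 (adjusted p = 0.174, 0.165, 0.0893 and 0.216, limma) and 0.724% of all probe sets were called. Deposited signals of Ghi.6088.1.S1_s_at were 166 to 257 under cold, against 28.7 to 31.8 in control. Nor did they pass in a fit to control, cold and NaCl alone, which was added after seeing the data and called 0.00832% of all probe sets: there they were at 3.00, 2.71, 2.94 and 2.12 (adjusted p = 0.103, 0.0805, 0.0599 and 0.102, limma).

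The arrays of a stress lay wholly above the control arrays in 4 of the 6 MPK3 probe sets for ABA, 6 for cold, 6 for mannitol, 2 for NaCl and 6 for pH. Over all probe sets such a separation upward was found for 26.7% under ABA, 18.9% under cold, 28% under mannitol, 7.16% under NaCl and 30.7% at high pH. Ghi.757.1.S1_x_at lay below control without overlap in each of the 5 stresses, as did 26.8% of all probe sets under ABA, 17.7% under cold, 29.2% under mannitol, 7.98% under NaCl and 30.7% at high pH.

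**Figure D1:**
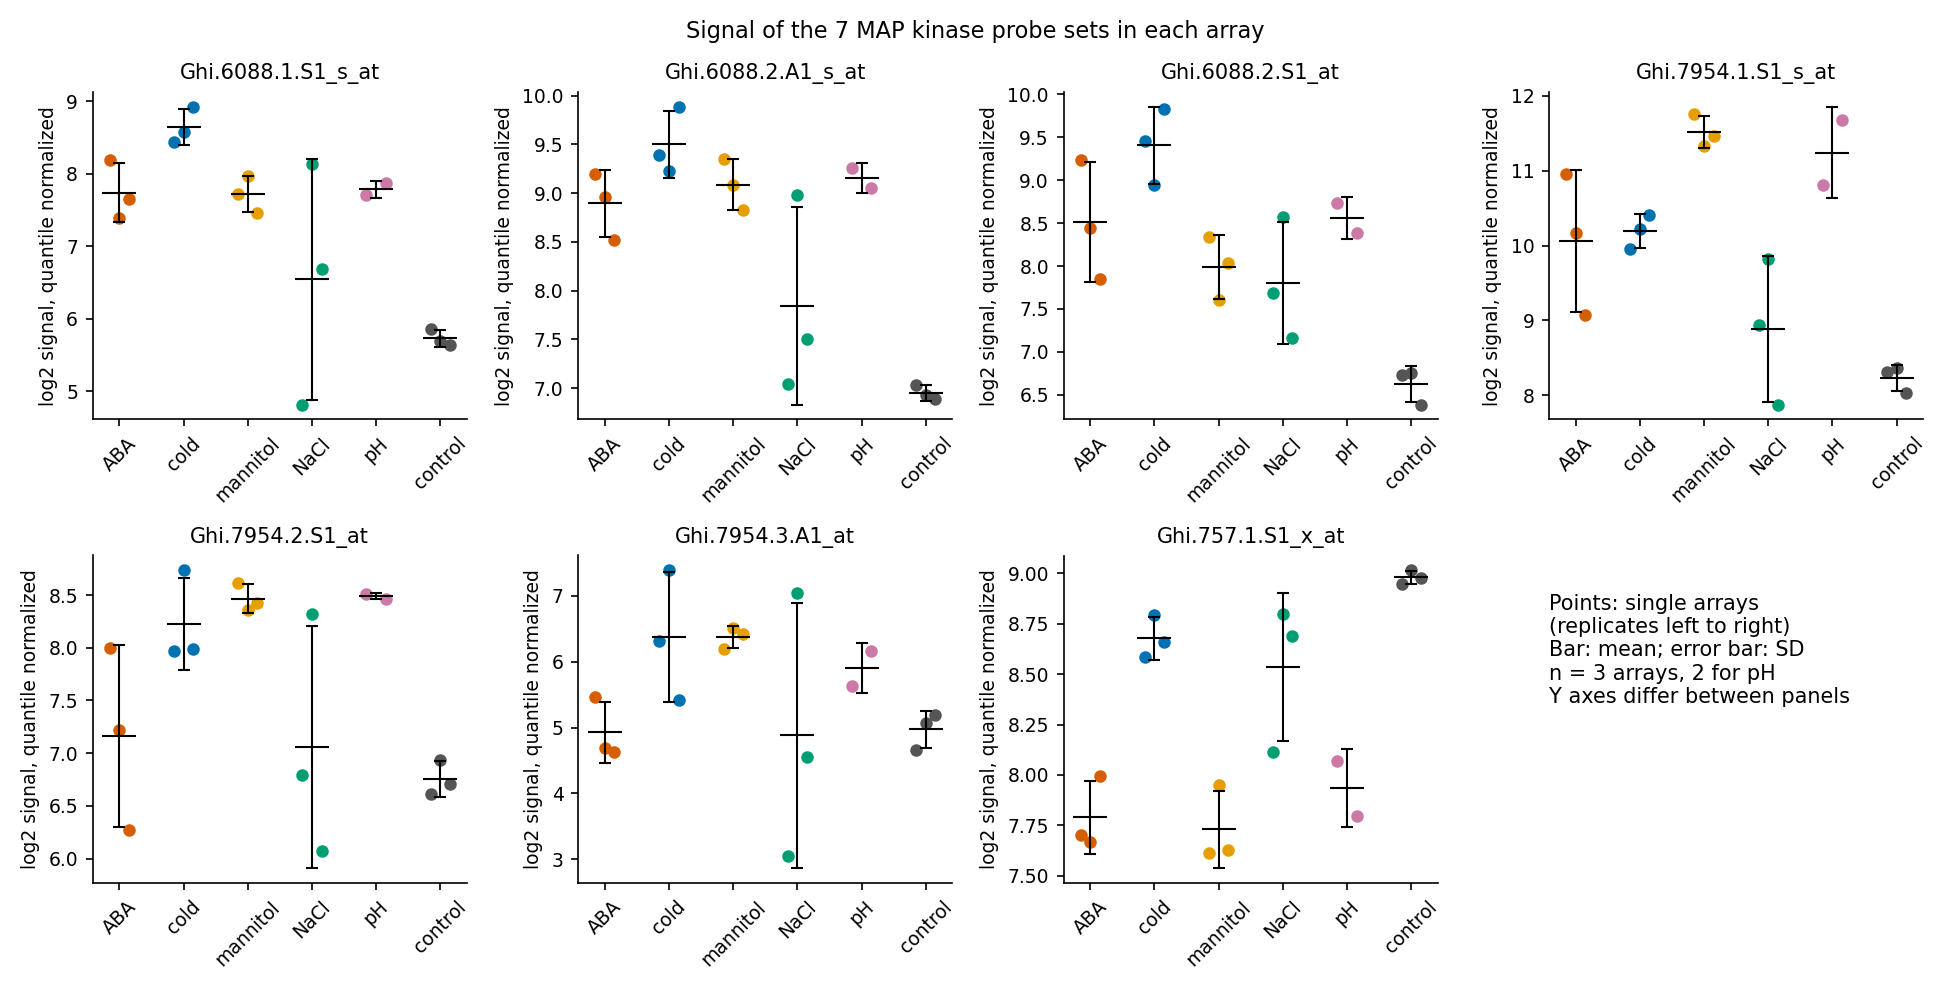
Quantile-normalized log2 signal (y axis, a separate scale in each panel) of the 7 probe sets in each of the 17 arrays, by condition (x axis), where points are single arrays and bars give the mean ± SD (n = 3, and 2 for pH). The control arrays sit below all ABA, cold, mannitol and pH arrays in the 3 cluster A panels and above all stressed arrays in the Ghi.757.1.S1_x_at panel, and the NaCl arrays are spread widely.

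All 3 probe sets of cluster A rose under ABA, cold, mannitol and high pH. Ghi.6088.2.A1_s_at stood at 9.20, 8.97 and 8.52 under ABA, 9.39, 9.23 and 9.89 under cold, 9.35, 9.09 and 8.83 under mannitol, 7.05, 8.98 and 7.50 under NaCl, 9.26 and 9.05 at high pH and 7.04, 6.92 and 6.88 in control. Every ABA, cold, mannitol and pH array was above 8.50, and the control arrays differed by less than 0.2 from each other. The rise was 1.95 under ABA, 2.55 under cold, 2.14 under mannitol and 2.21 at high pH (standard error 0.397, and 0.444 for pH), that is 3.86-fold, 5.87-fold, 4.40-fold and 4.62-fold (adjusted p = 0.00354, 0.00351, 0.00172 and 0.00339, limma), and it was 0.89 under NaCl (0.314). Its change was higher than that of 98.0% of all probe sets under cold, and than that of 94.1% under ABA, 94.5% under mannitol and 94.2% at high pH. These 4 calls held whichever of the 17 arrays was left out (limma). Its mean was highest under cold (9.50 ± 0.343, SD, n = 3) and lower at high pH (9.16 ± 0.150, n = 2), mannitol (9.09 ± 0.262, n = 3), ABA (8.90 ± 0.344, n = 3), NaCl (7.84 ± 1.01, n = 3) and control (6.95 ± 0.078, n = 3), and the first 4 of these neighbours did not differ from each other past the threshold.

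Ghi.6088.1.S1_s_at followed the same course. It stood at 8.18, 7.39 and 7.65 under ABA, 8.44, 8.58 and 8.92 under cold, 7.72, 7.97 and 7.46 under mannitol, 4.82, 8.13 and 6.68 under NaCl, 7.70 and 7.87 at high pH and 5.86, 5.70 and 5.64 in control. The 3 cold arrays were the highest of all, and NaCl held both the lowest array and one among the ABA arrays. Changes against control were 2.01 under ABA (adjusted p = 0.0208), 2.91 under cold (0.00889), 1.98 under mannitol (0.0214), 0.81 under NaCl (0.534) and 2.05 at high pH (0.0334), with a standard error of 0.575, and 0.643 for pH (limma). The ABA call was lost without control replicate 2 or 3 or ABA replicate 1 (1.78 to 1.99), the mannitol call without control replicate 2 or 3 or mannitol replicate 1 or 2 (1.86 to 1.99), and the pH call without any 1 of the control or pH arrays (1.96 to 2.14).

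In Ghi.6088.2.S1_at the mannitol rise was the smallest of the 4. Log2 signals were 9.24, 8.44 and 7.85 under ABA, 9.46, 8.94 and 9.83 under cold, 8.34, 7.60 and 8.04 under mannitol, 7.68, 8.57 and 7.17 under NaCl, 8.73 and 8.39 at high pH and 6.73, 6.76 and 6.39 in control. Here all NaCl arrays were above all control arrays, and the mannitol arrays were below all cold arrays. It rose by 1.89 under ABA (adjusted p = 0.00468), 2.78 under cold (0.00274), 1.37 under mannitol (0.0235) and 1.94 at high pH (0.00798), and was 1.18 under NaCl (0.197), with a standard error of 0.404, and 0.452 for pH (limma). The mannitol call was lost without control replicate 1 or 3 or mannitol replicate 1 or 3 (1.20 to 1.42) and with median centring (1.26, adjusted p = 0.0538), and the pH call without pH replicate 1 (1.77).

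Cluster B was led by mannitol and pH. Ghi.7954.1.S1_s_at stood at 10.96, 10.16 and 9.07 under ABA, 9.95, 10.22 and 10.40 under cold, 11.75, 11.34 and 11.47 under mannitol, 8.94, 9.83 and 7.88 under NaCl, 10.81 and 11.68 at high pH and 8.31, 8.36 and 8.04 in control. The mannitol arrays were above all ABA, cold and NaCl arrays, and the ABA arrays were spread over 1.89. The rise was 3.29 under mannitol (9.76-fold, adjusted p = 0.000439) and 3.01 at high pH (8.05-fold, adjusted p = 0.00187), against 1.83 under ABA (0.0151) and 1.96 under cold (0.0217), with a standard error of 0.490, and 0.548 for pH (limma). In NaCl it was 0.65 (adjusted p = 0.563). The mannitol and pH calls held without each single array, while the ABA call was lost without control replicate 3 or ABA replicate 1 or 2 (1.39 to 1.79) and the cold call without any 1 control array or cold replicate 3 (1.83 to 2.02).

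Ghi.7954.2.S1_at rose under mannitol and pH only by the call, although the values under cold were close. It stood at 7.99, 7.22 and 6.27 under ABA, 7.96, 8.73 and 7.99 under cold, 8.62, 8.36 and 8.42 under mannitol, 6.79, 8.32 and 6.07 under NaCl, 8.51 and 8.47 at high pH and 6.61, 6.94 and 6.71 in control. One ABA array and one NaCl array were below all control arrays, and the cold, mannitol and pH arrays were all above them. The change was 1.72 under mannitol (adjusted p = 0.0227), 1.74 at high pH (0.0383), 1.48 under cold (0.0700), 0.41 under ABA (0.582) and 0.31 under NaCl (0.815), with a standard error of 0.504, and 0.563 for pH (limma). The mannitol call was lost without control replicate 1 or 3 or any 1 mannitol array (1.64 to 1.78), the pH call without any 1 of the control, mannitol or pH arrays or ABA replicate 2 (1.66 to 1.83), and the cold value was called without NaCl replicate 2 or 3 (both 1.48).

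Ghi.7954.3.A1_at was called in no stress (limma, lowest adjusted p = 0.188). Its log2 signals were 5.46, 4.69 and 4.63 under ABA, 6.31, 7.38 and 5.42 under cold, 6.19, 6.51 and 6.42 under mannitol, 3.06, 7.04 and 4.55 under NaCl, 5.63 and 6.17 at high pH and 4.66, 5.07 and 5.19 in control. The mannitol arrays were close together, whereas NaCl spanned nearly the whole range of the probe set. Changes were -0.04 under ABA, 1.40 under cold, 1.40 under mannitol, -0.09 under NaCl and 0.93 at high pH, with a standard error of 0.753, and 0.842 for pH. Without NaCl replicate 2 the mannitol value passed (1.41, adjusted p = 0.0399). Its mean control signal was at the 35.9th percentile of all probe sets, and its standard errors were the largest among the 7 members.

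Ghi.757.1.S1_x_at, the probe set with both the MPK3 and the MPK6 synonym, was down-regulated under ABA, mannitol and pH. It stood at 7.70, 7.67 and 8.00 under ABA, 8.58, 8.79 and 8.66 under cold, 7.61, 7.95 and 7.63 under mannitol, 8.11, 8.80 and 8.69 under NaCl, 8.07 and 7.80 at high pH and 8.95, 9.01 and 8.98 in control. All ABA, mannitol and pH arrays were below all cold and NaCl arrays, which were in turn below control. It fell by 1.19 under ABA (2.28-fold, adjusted p = 0.00168), by 1.25 under mannitol (2.38-fold, 0.00105) and by 1.05 at high pH (2.06-fold, 0.00712), with a standard error of 0.214, and 0.239 for pH (limma), where 10.3%, 10.9% and 10.4% of all probe sets fell. In cold it was -0.30 (adjusted p = 0.378) and under NaCl -0.45 (0.353). The pH call was lost without pH replicate 2 (-0.91) and with trimmed mean scaling (-0.93, under 2-fold). On the deposited scale without rescaling, which differed between these 3 stresses and control, the sign was positive: 1.00 under ABA, 1.00 under mannitol and 1.14 at high pH, none of them called, where the median of all probe sets was 2.09, 2.19 and 2.11. Relative to that median its direction was thus downward on both scales.

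The order of the condition means, high to low, was cold, pH, ABA, mannitol, NaCl and control in Ghi.6088.1.S1_s_at and Ghi.6088.2.S1_at. It was mannitol, pH, cold, ABA, NaCl and control in Ghi.7954.1.S1_s_at, and pH, mannitol, cold, ABA, NaCl and control in Ghi.7954.2.S1_at. In Ghi.7954.3.A1_at it was mannitol, cold, pH, control, ABA and NaCl, and in Ghi.757.1.S1_x_at control, cold, NaCl, pH, ABA and mannitol. No neighbouring stresses in these orders differed past the threshold.

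**Figure D2:**
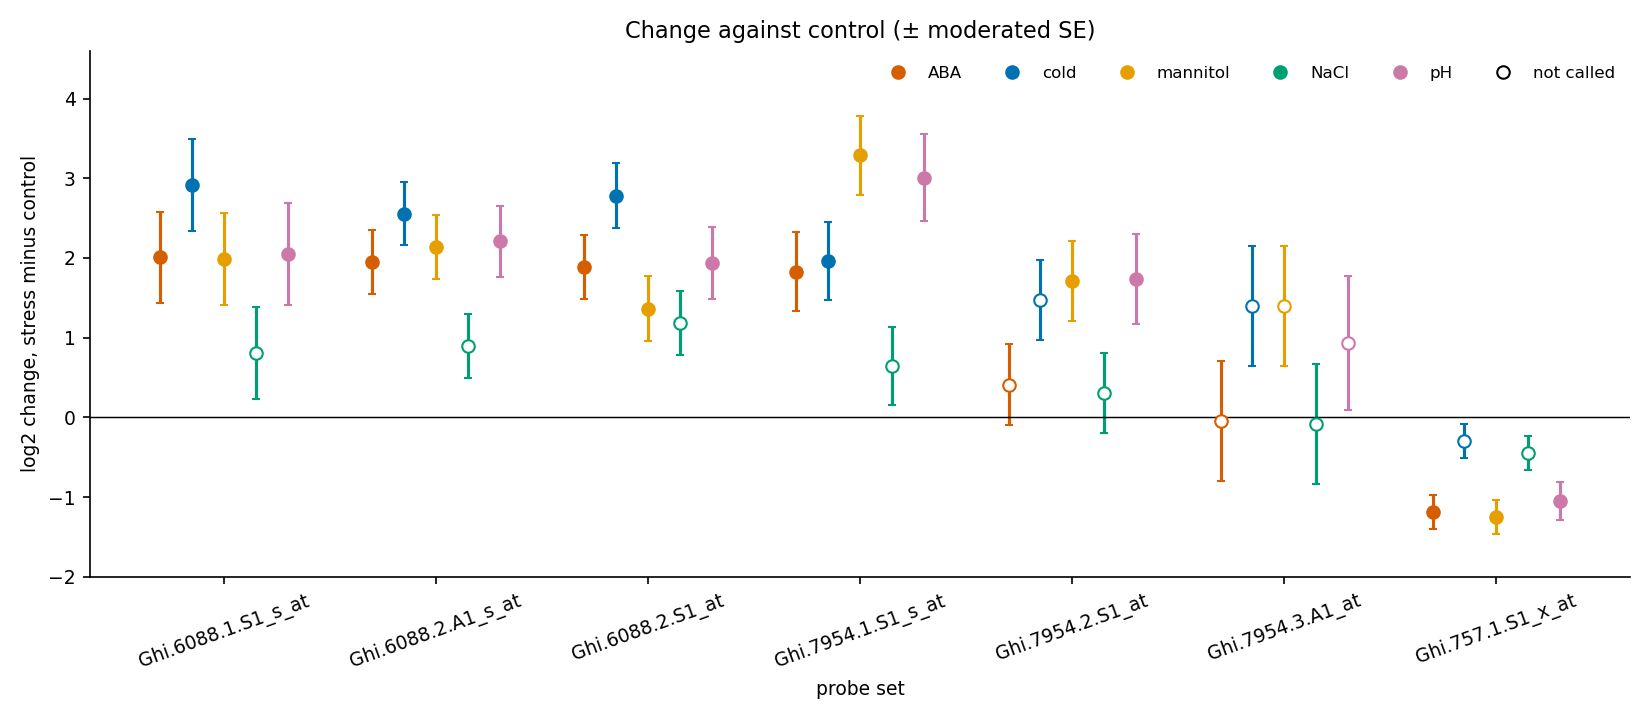
Log2 change against control (y axis, stress minus control, ± moderated standard error) of the 7 probe sets (x axis) under ABA, cold, mannitol, NaCl and pH, with filled points for changes that were called and open points for those that were not. Cold gave the highest values in the 3 cluster A probe sets (2.91, 2.55 and 2.78), mannitol and pH in Ghi.7954.1.S1_s_at (3.29 and 3.01), and NaCl no call.

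Under NaCl the 3 arrays differed widely, and 1 of them stood apart from the rest. In NaCl replicate 2, all 6 were above every control array, by 1.57 to 2.40 over the control mean, with a median of 1.99, but in 4 of them, the cluster A probe sets and Ghi.7954.1.S1_s_at, this array was below every cold array. In NaCl replicate 1, 3 of the 6 were above all control arrays and 2 below them, with a range of -1.91 to 1.06 and a median of 0.07. In NaCl replicate 3, 3 were above and 3 below, with a range of -0.68 to 0.95 and a median of 0.09. Without NaCl replicate 2, the changes against control were 0.02 for Ghi.6088.1.S1_s_at, 0.33 for Ghi.6088.2.A1_s_at, 0.80 for Ghi.6088.2.S1_at, 0.17 for Ghi.7954.1.S1_s_at, -0.32 for Ghi.7954.2.S1_at and -1.17 for Ghi.7954.3.A1_at. None of the 7 members was called under NaCl then either, although 4.21% of all probe sets were. Without NaCl replicate 1, the array of low deposited signal, the 6 changes were 1.69, 1.29, 1.24, 0.61, 0.44 and 0.84 in the same order. Again none of the 7 was called (lowest adjusted p = 0.0808, limma), where 85 of 24029 probe sets were. In Ghi.6088.2.A1_s_at and Ghi.6088.2.S1_at all 3 NaCl arrays were above the control arrays, in Ghi.6088.2.A1_s_at by as little as 7.05 against 7.04, and in the other 4 the groups overlapped.

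**Figure D3:**
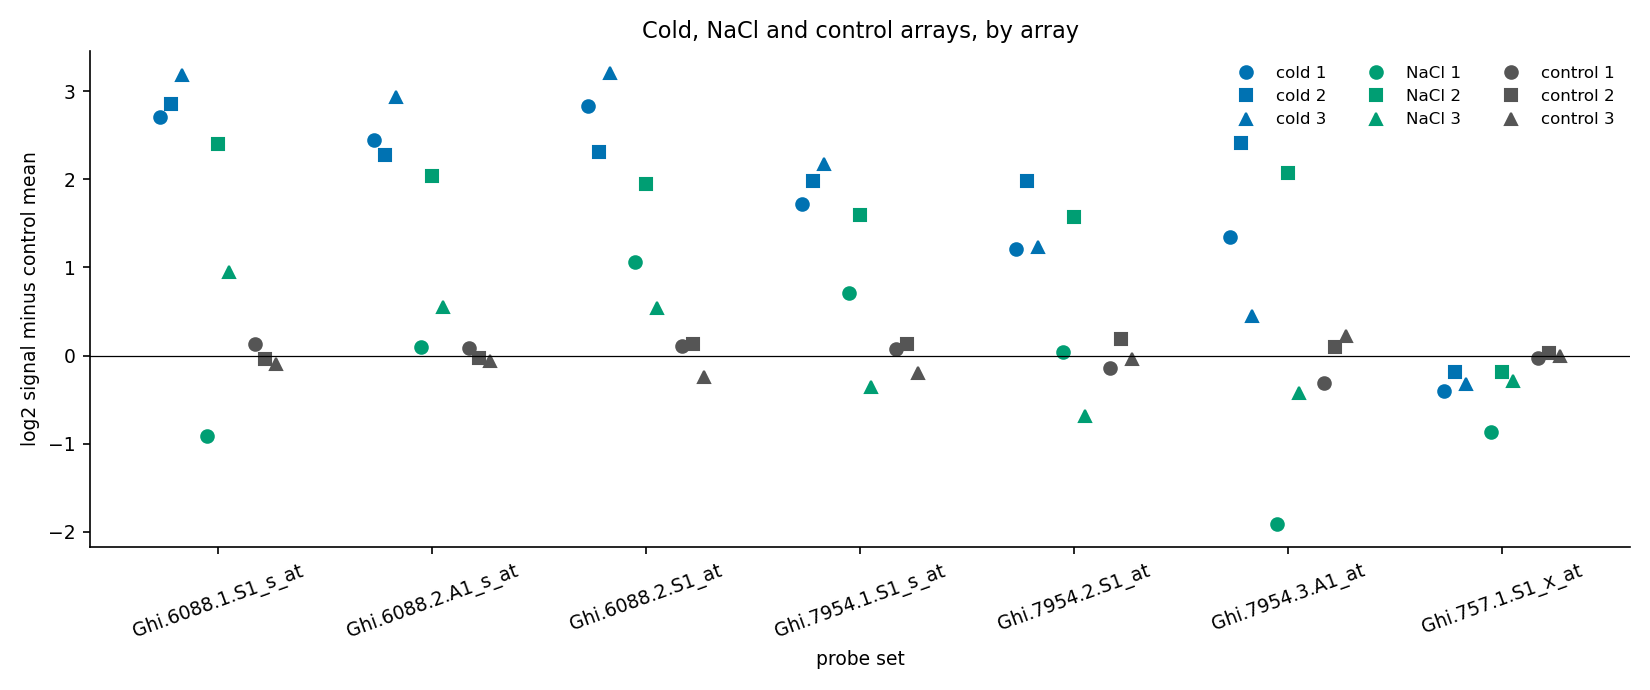
Log2 signal minus the control mean (y axis) of the 7 probe sets (x axis) in the single arrays of cold, NaCl and control, where the symbol gives the replicate. NaCl replicate 2 lay at 1.57 to 2.40 for the 6 MPK3 probe sets, within the range of the cold arrays in 2 of them and below every cold array in the other 4, and NaCl replicates 1 and 3 lay at -1.91 to 1.06.

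The stresses were also compared with each other, in 10 pairs for each of the 7 members. Of these 70 values 4 were called, where 13% of the values of all probe sets in the same pairs were called. All 4 set mannitol or pH against cold or NaCl, so stress and scale of deposit cannot be told apart in them. Between mannitol and ABA, which share a scale of deposit, no member was called. The cluster B probe sets were higher under mannitol than under ABA by 1.46, 1.30 and 1.44 (adjusted p = 0.120, 0.178 and 0.339, limma). For cluster A the same differences were -0.02, 0.19 and -0.52. In mannitol, Ghi.6088.2.S1_at was lower than under cold by 1.42 on the log2 scale (7.99 ± 0.370 under mannitol, 9.41 ± 0.447 under cold, SD, n = 3 each, limma adjusted p = 0.0230), and 19.4% of all probe sets were called for this pair. The same pair ran the other way in Ghi.7954.1.S1_s_at, with 11.52 ± 0.213 under mannitol and 10.19 ± 0.227 under cold, and this difference of 1.33 missed the threshold (adjusted p = 0.0663; it passed without ABA replicate 1 or 3 or NaCl replicate 2 or 3) although the arrays did not overlap, as for 24.1% of all probe sets upward and 23.9% downward. Ghi.7954.1.S1_s_at was higher under mannitol than under NaCl by 2.64 (adjusted p = 0.00217) and higher at high pH than under NaCl by 2.36 (adjusted p = 0.00913), and Ghi.6088.2.A1_s_at was higher under mannitol than under NaCl by 1.24 (adjusted p = 0.0351), in pairs with 21.3% and 19.2% of all probe sets called. Among these 4 calls, the mannitol and NaCl difference of Ghi.7954.1.S1_s_at held without each single array. The others were lost without single arrays: mannitol and cold without cold replicate 1 or 3 or mannitol replicate 2 or 3 (-1.45 to -1.19), pH and NaCl without pH replicate 2 (1.94), and the Ghi.6088.2.A1_s_at difference without any 1 mannitol array or NaCl replicate 1 or 3 (0.84 to 1.38).

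For cold and NaCl, no member passed the test while all arrays were used. Cold was above NaCl by 2.10 in Ghi.6088.1.S1_s_at, 1.66 in Ghi.6088.2.A1_s_at and 1.60 in Ghi.6088.2.S1_at (adjusted p = 0.111, 0.0957 and 0.104, limma), and no arrays of the pair overlapped in these probe sets, as in 6.88% of all probe sets upward. Only 0.308% of all probe sets were called for this pair. Without NaCl replicate 2, 17.2% were called, and so were all 6 MPK3 probe sets, with 2.90, 2.23, 1.98, 1.78, 1.80 and 2.58 in the order of the clusters (adjusted p = 0.000243 to 0.0208). Over the 10 pairs, 23 of the 70 values were called in that case, where 17.6% of the values of all probe sets were.

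Ghi.757.1.S1_x_at had lower means under ABA, mannitol and high pH than under cold and NaCl. It was lower under ABA than under cold by 0.89 (adjusted p = 0.00885), lower under mannitol than under cold by 0.95 (0.00697) and lower at high pH than under cold by 0.74 (0.0421), and no arrays overlapped, as downward in 22.0%, 23.9% and 24.9% of all probe sets, but each difference was under 2-fold and was therefore not called (limma). Against NaCl it was lower by 0.74 under ABA (0.0218), by 0.80 under mannitol (0.0154) and by 0.60 at high pH (0.0910). These 2 sets of conditions also differ in scale of deposit, which cannot be told apart from them here. Without mannitol replicate 2 the mannitol and cold difference was called (-1.07, adjusted p = 0.0139), as was the mannitol and NaCl difference without NaCl replicate 1 (-1.01, adjusted p = 0.00420).

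Although both clusters are annotated to one gene, they did not move by like amounts. For each array, the log2 changes from the control mean were averaged over the 3 probe sets of a cluster, and the cluster A mean was taken from the cluster B mean. This difference was -0.95, -1.12 and -1.57 under ABA, -1.24, -0.35 and -1.83 under cold, 0.17, 0.30 and 0.45 under mannitol, -0.47, -0.38 and -1.17 under NaCl, -0.46 and 0.12 at high pH and -0.24, 0.11 and 0.12 in control. Cluster B was thus behind cluster A in every ABA, cold and NaCl array and ahead of it in every mannitol array. The cluster A mean was 1.95 ± 0.446 under ABA, 2.75 ± 0.324 under cold, 1.83 ± 0.185 under mannitol, 0.96 ± 1.05 under NaCl and 2.07 ± 0.0926 at high pH (SD, n = 3, and 2 for pH). The cluster B mean was 0.73 ± 0.740 under ABA, 1.61 ± 0.451 under cold, 2.13 ± 0.0607 under mannitol, 0.29 ± 1.26 under NaCl and 1.89 ± 0.319 at high pH. These are descriptions of chosen probe sets and were given no test.

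Ghi.7954.3.A1_at had the largest standard errors of cluster B. Without it, the difference was -0.46, -0.63 and -1.39 under ABA, -1.19, -0.50 and -1.41 under cold, 0.66, 0.57 and 0.78 under mannitol, 0.29, -0.55 and -1.20 under NaCl and 0.04 and 0.58 at high pH, so 1 NaCl array changed sign and the ABA, cold and mannitol arrays did not. Between single probe sets of the clusters, Ghi.7954.1.S1_s_at exceeded Ghi.6088.2.A1_s_at in its change by 1.12, 0.96 and 1.36 under mannitol and fell short by 0.73, 0.29 and 0.77 under cold, while the ABA arrays lay on both sides (0.47, -0.09 and -0.74), as did the NaCl arrays (0.61, -0.44 and -0.91), and the pH arrays were at 0.26 and 1.34. The mean of the difference was highest under mannitol in each of the 3 forms of the comparison, although a pH array lay within the mannitol range in the last 2 forms. It was negative under ABA, cold and NaCl in each form, and cold was the condition in which every array was below 0 in all 3 forms.

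**Figure D4:**
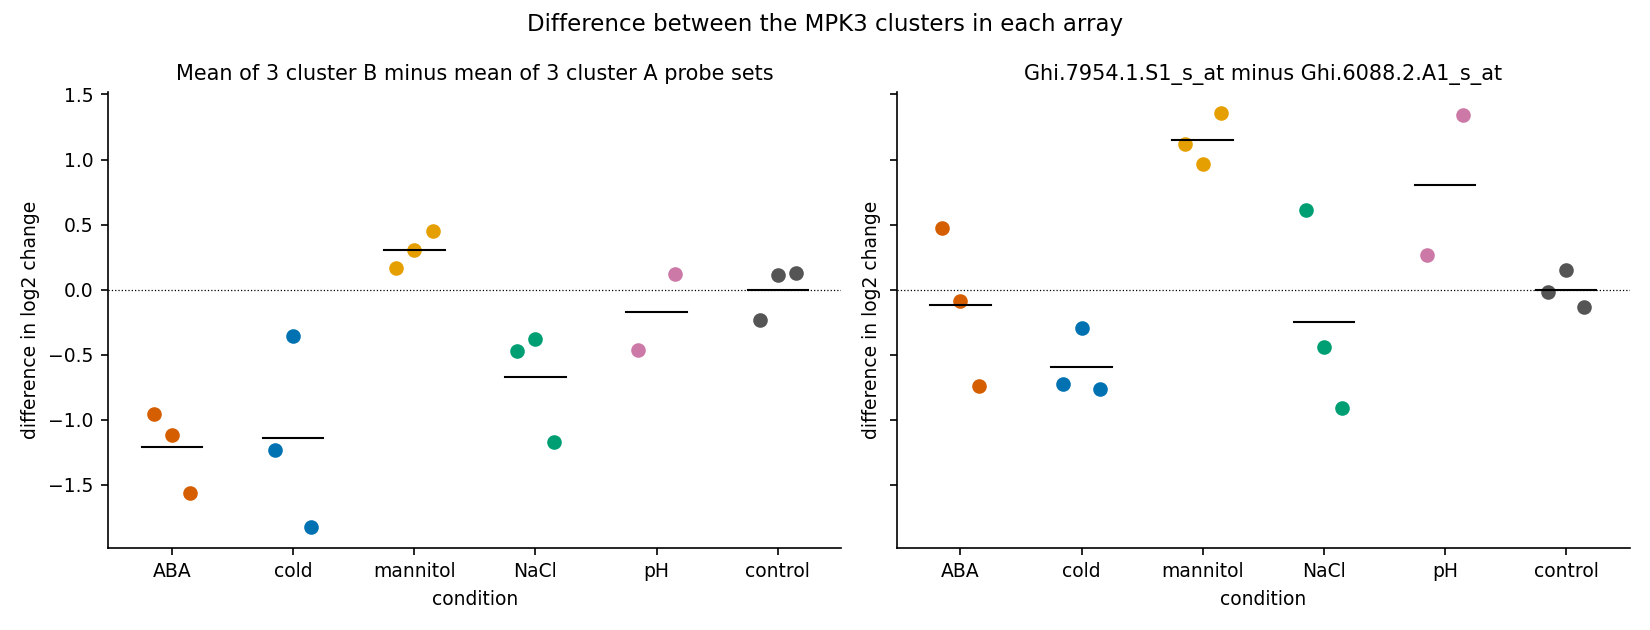
Difference between the clusters in log2 change from the control mean (y axis) in each of the 17 arrays by condition (x axis), as the mean of the cluster B probe sets minus that of the cluster A probe sets (left) and for 1 probe set of each (right), with lines at the means. The 3 mannitol arrays lie above 0 in both panels (0.17 to 0.45 and 0.96 to 1.36), and the 3 cold arrays below it.

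Probe sets of a cluster varied together over the 17 arrays, as a description that mixes conditions and replicates. Pearson's r was 0.830 to 0.949 among the 3 probe sets of cluster A, 0.584 to 0.875 among those of cluster B and 0.420 to 0.821 between the clusters. With the condition means removed, the same values were 0.427 to 0.859, 0.431 to 0.870 and 0.277 to 0.805. Ghi.757.1.S1_x_at was at -0.735 to -0.0105 with the 6 others, lowest with Ghi.7954.1.S1_s_at, and at -0.270 to 0.713 once the condition means were removed.

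Of the annotated probe sets with a synonym, those whose log2 signals followed the mean of cluster A most closely over the 17 arrays were CBF20/DREB1C (r = 0.885), CBF15/DBP2 (0.874), NAC5/NAC8 (0.869), WRKY24/WRKY71 (0.858) and MYB1 (0.844). CBF and DREB factors bind C-repeat elements of cold-responsive promoters in Arabidopsis, and NAC, WRKY and MYB are families of transcription factors. For cluster B they were WRKY24/WRKY71 (0.922), CBF15/DBP2 (0.877), MYB1 (0.873), GEPH (0.840) and Lea5-D (0.810), the last a late embryogenesis abundant protein. As these probe sets were chosen for their likeness over the same arrays, their changes against control are a description with no test. WRKY24/WRKY71 was at 2.24 under ABA, 3.42 under cold, 3.83 under mannitol, 1.51 under NaCl and 4.25 at high pH. GEPH, which was named for cluster B only, was at 0.20 under ABA, 0.98 under cold, 1.76 under mannitol and 1.54 at high pH. The probe sets that followed Ghi.757.1.S1_x_at were psmB1 (0.922), a MYB probe set with GHMYB38 among its synonyms (0.900), Ghfe1 (0.862), the expansin EXPA3D (0.837) and GHTTG1 (0.836). Among all probe sets the closest were Ghi.5456.1.A1_s_at for cluster A (0.950), Ghi.2969.1.S1_at for cluster B (0.948) and Ghi.958.2.S1_a_at for Ghi.757.1.S1_x_at (0.976), for which no gene is given in the tables used here.

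By the platform's synonyms 4 probe sets outside the 7 belong to the cascade. Of these 1 rose under mannitol, where 11.9% of all probe sets did, and none rose under ABA, cold, NaCl or pH (11.8%, 5.66%, 0.466% and 11.7% of all probe sets) or fell in any stress, with median log2 changes of 0.62, 0.03, 0.53, -0.07 and 0.79 under ABA, cold, mannitol, NaCl and pH. The probe set of MPK14, also listed as MAPK, stood at 9.72, 9.76 and 9.77 under ABA, 8.25, 7.70 and 8.19 under cold, 10.28, 9.99 and 9.69 under mannitol, 8.87, 7.88 and 9.07 under NaCl, 9.95 and 9.82 at high pH and 9.29, 8.44 and 9.14 in control. It rose by 1.02 under mannitol (adjusted p = 0.0303) and was -0.91 under cold (0.0777, limma). It was higher under mannitol than under cold by 1.94 (0.00116), at high pH than under cold by 1.84 (0.00371) and under ABA than under cold by 1.70 (0.00230, limma). In these pairs stress and scale of deposit cannot be told apart, and 19.4% of all probe sets were called for mannitol and cold. MPK14 thus had its lowest mean under cold, the condition in which the cluster A probe sets had their highest, although NaCl replicate 2 lay among its cold arrays. Both probe sets of a MAPKKK, the first tier of the cascade, were at 0.10 to 0.93 in all stresses and not called, and MPK23 was at -0.46 to 0.08.

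The study's tables name 2 further probe sets as MAPKKK5, in a list of transcripts raised under ABA. Their ABA rise was thus the ground for their choice and is no evidence here. Their other changes against control use the control arrays of that choice, and mannitol and pH also share the scale of deposit of ABA. The first probe set was higher by 2.46 under ABA, 2.94 under mannitol and 2.23 at high pH, and at 0.55 under cold and -0.11 under NaCl. The second was higher by 1.84 under ABA and 1.42 under mannitol, and at 0.07 under cold, -0.17 under NaCl and 0.82 at high pH. In cold, where MPK3 was raised in 4 of 6 probe sets, neither was called (adjusted p = 0.495 and 0.915, limma), while 11.1% of all probe sets were. Both were higher under mannitol than under cold (by 2.39 and 1.36, adjusted p = 0.00404 and 0.00857, limma). For that pair 19.4% of all probe sets were called, and stress and scale of deposit cannot be told apart.

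**Figure D5:**
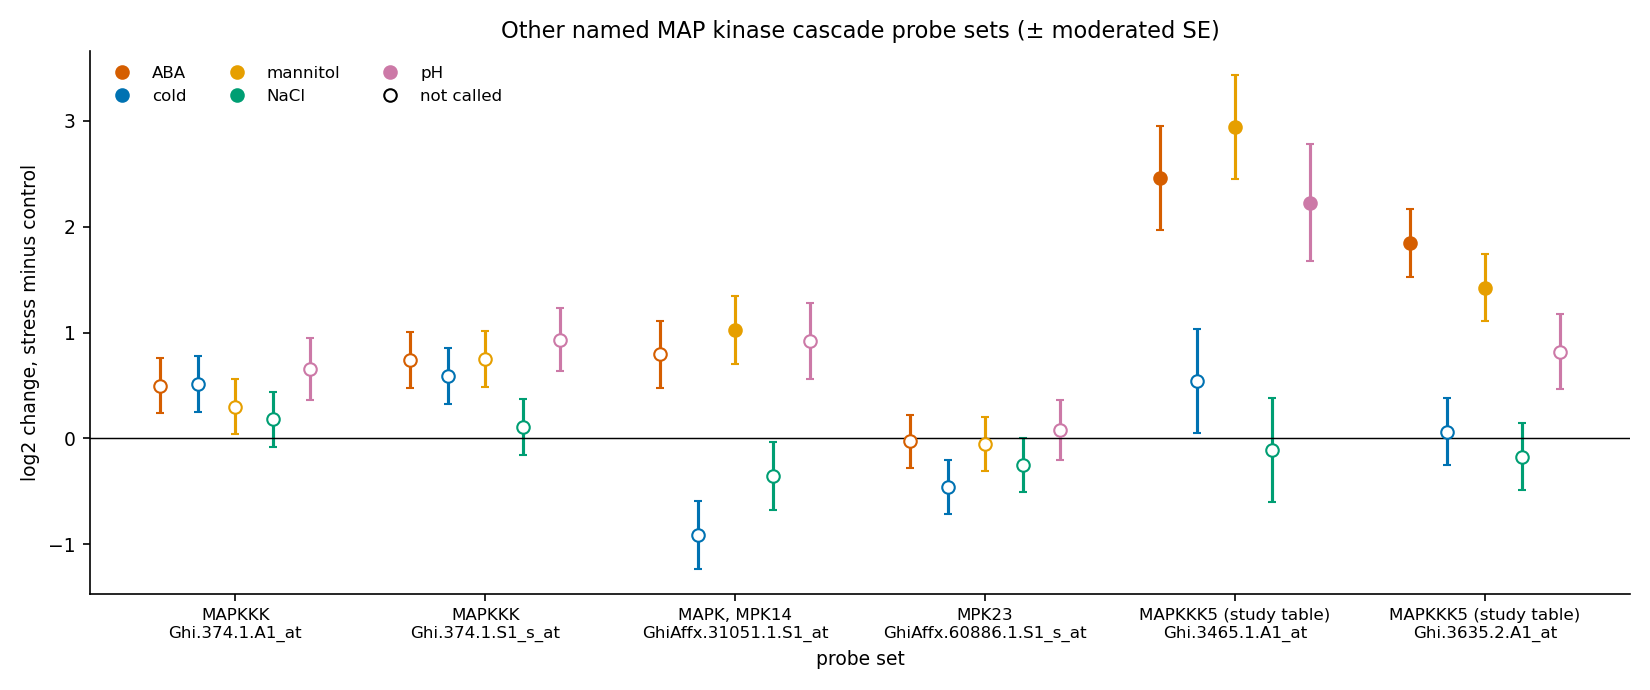
Log2 change against control (y axis, stress minus control, ± moderated standard error) of the other named MAP kinase cascade probe sets (x axis) in 5 stresses, filled where called. The probe set of MPK14 was at 1.02 under mannitol and -0.91 under cold, and the MAPKKK5 probe sets, chosen by the study for their rise under ABA, were at 0.55 and 0.07 under cold.

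Ethylene genes, which include ACC synthase targets of MPK3 and MPK6 in Arabidopsis, were annotated with 14 probe sets. Of these 1 rose and 1 fell under ABA, 1 rose and 1 fell under cold, 0 rose and 1 fell under mannitol, none changed under NaCl, and 2 rose and 1 fell at high pH. Among all probe sets, 11.8% rose and 10.3% fell under ABA, 5.66% and 5.48% under cold, 11.9% and 10.9% under mannitol and 11.7% and 10.4% at high pH, so that these counts were near the shares of all probe sets. The probe set listed as ACS3/ACS6 rose by 1.64 under cold (adjusted p = 0.0300) and was at -0.05 under ABA, 0.22 under mannitol, 0.51 under NaCl and -0.36 at high pH, whereas ACS1 rose by 1.42 under ABA (0.00155) and 1.05 at high pH (0.0166) and was at -0.16 under cold (limma). The other rise at high pH was that of an ERF9 probe set (1.48, adjusted p = 0.0437), which is named here after its values were seen. Its control signals were low, at 4.31, 4.15 and 4.17. A second ERF9 probe set was at 5.76 and 6.28 at high pH and 3.61, 3.86 and 4.11 in control, and was not called. ERF3, an ethylene response factor, fell by 1.98 under cold. Its log2 signals were 8.35 to 8.65 in control and 6.15 to 6.99 under cold. They were 7.47 to 7.66 under ABA, 7.26 to 7.52 under mannitol and 7.21 to 7.78 at high pH. Under NaCl they were 6.46 to 8.58, and only the cold fall was called. Of the 2 ACO1 probe sets, for the last enzyme of ethylene synthesis, 1 fell by 1.25 under ABA, 1.23 under mannitol and 2.24 at high pH. ACO3 was called in no stress. Its log2 signals were 12.31 to 13.05 in the stressed arrays, above the 11.80 to 12.11 of control. Of 5 probe sets of CBF and DRE-binding factors, 1 rose under ABA, 2 under cold, 3 under mannitol, 0 under NaCl and 2 at high pH, and none fell, where 11.8%, 5.66%, 11.9%, 0.466% and 11.7% of all probe sets rose. One of the 2 CBF17 probe sets rose by 2.23 under mannitol (adjusted p = 0.000885) and 2.14 at high pH (0.00273), and was at 0.45 under ABA, 0.59 under cold and -0.29 under NaCl, while the other was at -0.28 to 0.38 in all stresses (limma). CBF15/DBP2 rose by 2.37 under ABA, 2.47 under cold, 3.07 under mannitol and 2.19 at high pH (adjusted p = 0.00802, 0.0150, 0.00155 and 0.0218), and CBF20/DREB1C by 2.24 under cold and 1.60 under mannitol (0.0155 and 0.0335, limma); both are also among the probe sets named above for their likeness to the clusters. The synonyms in the platform annotation matched no probe set for WRKY33, ABA receptors or phosphatases, NADPH oxidases or calcium-dependent protein kinases, and such probe sets described only in the study's tables were not analysed here.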

How the data were processed

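Deposited values were signal intensities on a linear scale, 1 per probe set and array, computed by the authors with MAS5 (version not given in the sources used here) from the Affymetrix Cotton Genome Array. Signals were taken to log2, quantile normalized over 17 arrays, and fitted in 1 model with 1 coefficient per condition in R 4.3.3 with limma 3.58.1 (lmFit, eBayes). The 103 control probe sets of the manufacturer were dropped from 24132, which left 24029 for testing without a filter. Calls needed a fold of 2 or more and an adjusted p (Benjamini-Hochberg) of 0.05 or less, and standard errors are the moderated ones. Members, gene lists, the normalization and the rule for named genes (all members, the other probe sets of the cascade, up to 4 members of each further list with the smallest adjusted p, and the probe sets most correlated with each cluster mean, of which the 5 with a synonym and the closest of all are given) were chosen with earlier results of these data known. The methods name SAM, which was run as an alternative, with other scalings, an offset of 32, a filter on the lowest 25% of signals, other fits, unadjusted p, a replicate block and omission of each array. Single-array arms were assumed to vary like the other groups. Names came from the platform annotation (743 probe sets, 697 with 1 gene and 46 with several) and RefSeq synonyms (324). Replicate numbers did not pair arrays: over 40 same-numbered pairs, r of deviations from condition means averaged 0.00792, and 3 were above 0.1. The test was checked on simulated data with the spread of the control arrays in every group. That check did not cover the wider spread under NaCl or the scales of deposit. Plots were made in Python 3.11.15 (matplotlib 3.10.9). No sequence of the members was used here.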

Additional observations from a re-analysis of the deposited data

Results flagged for a closer look

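The 4 differences between stresses that passed the test of the difference itself are set out here. Each sets mannitol or pH against cold or NaCl, so stress and scale of deposit cannot be told apart in them. Ghi.6088.2.S1_at was lower under mannitol than under cold (-1.42, limma adjusted p = 0.0230). Ghi.6088.2.A1_s_at was higher under mannitol than under NaCl (1.24, adjusted p = 0.0351). Ghi.7954.1.S1_s_at was higher under mannitol than under NaCl (2.64, adjusted p = 0.00217) and higher at high pH than under NaCl (2.36, adjusted p = 0.00913). The 3 differences with NaCl rest on a group in which replicate 2 correlated most with a cold array and replicate 1 had low deposited signal. Without NaCl replicate 2 they were 1.81, 3.10 and 2.83. Without NaCl replicate 1 the difference of Ghi.6088.2.A1_s_at was 0.84 (adjusted p = 0.129, limma) and not called, while those of Ghi.7954.1.S1_s_at stayed called.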

How the results depend on the processing

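Against control, the count of members called was 5 under ABA under all alternatives other than the omission of single arrays, 5 to 7 under mannitol and 5 to 6 at high pH. A steady count can hide a change in which members were called. Without rescaling, Ghi.757.1.S1_x_at was not called in these 3 stresses, while 3 values that the main fit did not call gained a call. In cold the 4 calls became 0 without rescaling, where the 4 changes were 2.07 to 2.82, and 0 in a fit to control, cold and NaCl alone, an alternative chosen after seeing the data in which the 6 MPK3 values were 1.37 to 3.00 and 2 of all probe sets were called. In NaCl 0 became 1 at unadjusted p. Between stresses the 4 of 70 became 27 without rescaling, 7 with median centring, 8 with trimmed mean scaling, 9 with the offset, 8 without the lowest signals, 8 with a variance trend, 7 with SAM, 18 at unadjusted p, 24 without cold replicate 2 and NaCl replicate 2 together and 22 without NaCl replicates 1 and 2 together (the last 2 also chosen after seeing the data). The causes were not tested. Leaving out 1 array gave 3 to 5 calls under ABA, 3 to 5 under cold, 3 to 7 under mannitol, 0 to 0 under NaCl, 3 to 6 at high pH and 2 to 23 between stresses, the 23 without NaCl replicate 2. Without rescaling, all probe sets shift with the scale of deposit, by a median of 2.09 under ABA, 2.19 under mannitol and 2.11 at high pH against control and 2.51 under mannitol minus cold, and signs are read relative to it: Ghi.757.1.S1_x_at was 1.00 under ABA, 1.00 under mannitol and 1.14 at high pH, and Ghi.6088.2.S1_at 0.79 under mannitol minus cold, each below that median and none of them called. Over single values with 1 array left out, 553 against control and 1152 between stresses kept their side of the threshold, 39 and 10 lost the call, and 3 and 28 gained one.

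With the replicate block, 5 members were called under ABA, 4 under cold, 6 under mannitol, 0 under NaCl and 5 at high pH, and 5 of 70 values between stresses. Ghi.7954.2.S1_at lost its call at high pH (1.52, adjusted p = 0.0512) and gained one under mannitol minus NaCl (1.41, adjusted p = 0.0401). In NaCl replicate 1 deposited signals were 1.17 to 39.7 for the 6 MPK3 probe sets, and the part of low signal in the spread between the NaCl arrays was not tested.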
